A study of Mus musculus with 12 samples.

Results

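The genes described here encode the proteins that turn cholesterol into sex steroids, with an enzyme that inactivates glucocorticoid and the peptide hormone Insl3. The 10 genes were chosen by name for their known functions: Star, Cyp11a1, Cyp17a1, Cyp19a1, Hsd3b1, Hsd3b6, Hsd17b1, Hsd17b3, Hsd11b2 and Insl3. They are 10 genes beside 33811 gene symbols that the array annotation attaches to at least 1 transcript cluster, the set of probes that the array reports as 1 value. Of the 10, 8 had a cluster that carries only their own symbol. The cluster of Insl3 also carries Jak3, a gene that overlaps it, and expression of Cyp19a1 was not analysed here.

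Expression was measured in mouse gonads at embryonic day 12.5 (E12.5) in 12 samples, 4 per group, each on 1 Clariom D array. The dKO XY group held gonads of XY embryos that were Amh-/-; Inhbb-/-, without anti-Müllerian hormone and the beta B subunit of activin B. The control XX and control XY groups held gonads of Amh+/+; Inhbb+/+ embryos. Embryos came from timed matings of Amh+/-; Inhbb+/- mice on a C57BL/6 background, and the mesonephros had been removed before RNA extraction. In dKO XY embryos both genes are null in every cell rather than in 1 cell type. The stage given here comes from the sample labels. A later embryonic stage is assigned to this series where the study lists its data, and the files do not settle the conflict. Nothing in the labels says which animal or litter a sample came from, so each p-value measures the spread between these samples. In whole gonads, fewer cells of a type and less RNA per cell cannot be told apart.

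In the developing testis, fetal Leydig cells begin to make androgen soon after the Sertoli cells have formed. Star carries cholesterol into the mitochondrion, Cyp11a1 cleaves its side chain to give pregnenolone, 3-beta-hydroxysteroid dehydrogenases and Cyp17a1 convert that to androstenedione, and Hsd17b3 reduces androstenedione to testosterone. In the fetal mouse testis the last step is known to take place mainly in Sertoli cells, while the earlier steps belong to fetal Leydig cells. The fetal ovary makes little steroid at this stage.

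All 8 steroid genes with a cluster of their own were lower in every dKO XY gonad than in every control XY gonad. Of these, 6 passed the test (limma, adjusted p under 0.05 over 65956 clusters), and the measured log2 differences were largest for Hsd17b3 (-3.12), Cyp17a1 (-2.39) and Hsd3b1 (-1.95). The negative control probe sets of the arrays averaged 6.54 to 6.95, with a 95th percentile of 9.94 to 10.86, and all 8 genes lay below that percentile in every dKO XY and control XX sample. Star, Cyp11a1, Hsd3b6 and Hsd17b1 lay below it in every control XY sample as well. The low values are therefore not well above background, and differences are given in log2 intensity rather than as folds. The median of the 8 differences was -1.63 on the log2 scale, against 0.17 over all clusters. Over the 5625 clusters whose highest group mean exceeded the average 95th percentile of the negative controls, the median was -0.55. Tested by themselves, 1423 of these brighter clusters were called lower and 155 higher. Only Hsd17b3 of the 8 genes is among them, through its control XY level. Among all clusters, 9.8% were called lower and 16.7% higher in dKO XY gonads, and 8.24% were lower without any overlap of the groups. Between the 2 control groups, 3 of the 8 genes were called lower in the XX gonads, Hsd17b3, Hsd11b2 and Cyp17a1, and the same 3 had groups that did not overlap. Over all clusters 1.34% were called lower and 0.608% higher in control XX gonads, and 5.76% were lower without overlap. The median of the 8 differences was -1.35 there, against 0.12 over all clusters and -0.19 over the brighter ones.

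**Figure D1:**
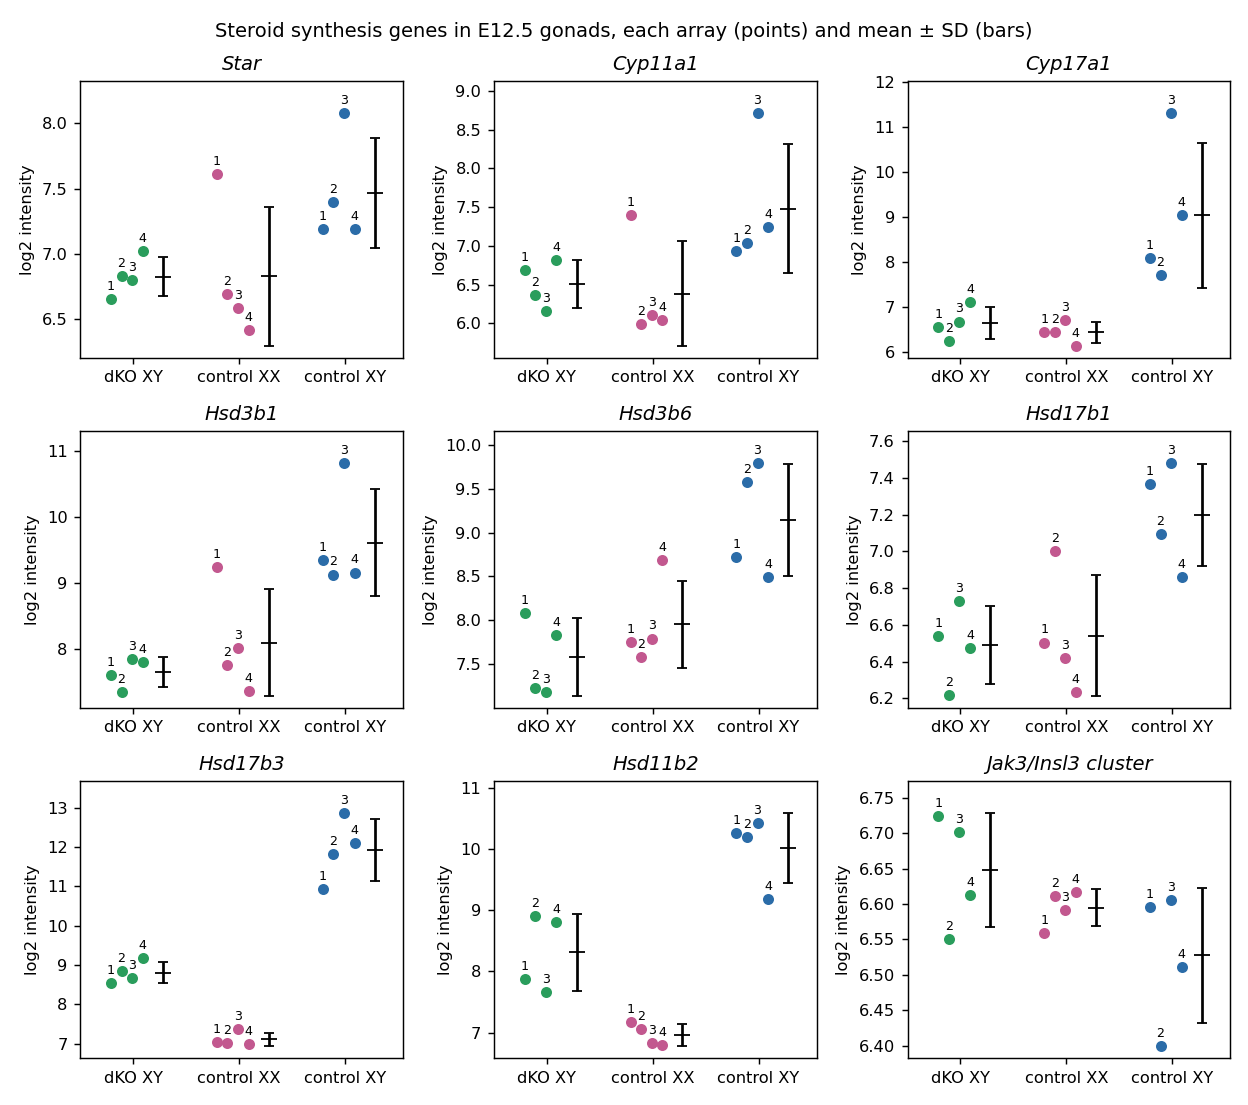
Log2 intensity (vertical axes) of the 8 steroid genes and of the cluster shared by Jak3 and Insl3 in each sample, by group (horizontal axis). Points are single arrays and bars are the mean with its SD (n = 4). The 4 dKO XY points lie below the 4 control XY points in each of the 8 steroid gene panels, and above the 4 control XX points for Hsd17b3 and Hsd11b2.

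Star and Cyp11a1 stand at the entry of the pathway. Star measured 6.66, 6.83, 6.80 and 7.03 in dKO XY gonads, 7.61, 6.70, 6.59 and 6.42 in control XX gonads, and 7.19, 7.40, 8.08 and 7.19 in control XY gonads (log2 intensity, in replicate order, as for the genes that follow). The dKO XY values all lay under the lowest control XY value, while control XX 1 stood among the control XY samples and the other 3 control XX samples below them. For dKO XY minus control XY this gave -0.64 ± 0.25 (standard error, as for all differences), with an adjusted p of 0.0735 in limma, which did not pass. It passed in 2 of 22 alternative fits, after median centring (-0.90, adjusted p = 0.0379) and without control XX 1 (adjusted p = 0.0413).

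Cyp11a1, the side-chain cleavage enzyme, measured 6.69, 6.36, 6.15 and 6.82 in dKO XY gonads, 7.39, 5.99, 6.11 and 6.04 in control XX gonads, and 6.94, 7.03, 8.71 and 7.24 in control XY gonads. Its pattern was that of Star: control XX 1 was the high sample of its group and control XY 3 of its own. The difference of -0.97 ± 0.39 between dKO XY and control XY missed the threshold (limma, adjusted p = 0.0759), as did that of -1.10 between control XX and control XY (adjusted p = 0.161). A second cluster that carries the Cyp11a1 symbol was dim, between 4.63 and 5.32 in all 12 samples, and differed by -0.03 between dKO XY and control XY gonads.

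Hsd3b1 and Hsd3b6, 2 of the 3-beta-hydroxysteroid dehydrogenases, convert pregnenolone and related steroids into their delta-4 forms. In the mouse, Hsd3b1 is known from gonads and adrenals and Hsd3b6 from adult Leydig cells and the adrenal zona glomerulosa. Genes of this family are close in sequence, so signal from 1 copy can reach the probes of another. Hsd3b1 measured 7.62, 7.36, 7.85 and 7.81 in dKO XY gonads, 9.25, 7.77, 8.02 and 7.38 in control XX gonads, and 9.35, 9.13, 10.81 and 9.16 in control XY gonads. It fell by 1.95 ± 0.41 in dKO XY relative to control XY gonads (limma, adjusted p = 0.0212). Control XX 1 lay inside the control XY range and the other 3 control XX samples lay with the dKO XY samples. The control XX minus control XY difference was -1.51 with all samples (adjusted p = 0.0833) and -1.89 without control XX 1 (adjusted p = 0.026), the only one of 22 alternative fits where it passed (adjusted p 0.026 to 0.427 over them).

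Hsd3b6 measured 8.08, 7.23, 7.18 and 7.83 in dKO XY gonads, 7.76, 7.58, 7.79 and 8.69 in control XX gonads, and 8.72, 9.58, 9.79 and 8.49 in control XY gonads. The dKO XY samples stood below all control XY samples, and among the control XX samples it was the fourth, not the first, that reached the control XY range. Hsd3b6 fell by 1.57 ± 0.33 in dKO XY relative to control XY gonads (limma, adjusted p = 0.0213). The control XX minus control XY difference of -1.19 did not pass (adjusted p = 0.0888), and was -1.44 without control XX 4 (adjusted p = 0.0438, with 0.0171 to 0.665 over all 22 alternative fits).

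The sequences around the start sites of the Hsd3b1 and Hsd3b6 genes are shown because both genes fell in dKO XY gonads and only their windows, of 9 windows for 6 of the 10 genes, held a searched motif. The 6 genes include Cyp19a1, for which only promoter windows were examined. Each window runs from 250 bases before to 50 after a RefSeq start site (GRCm38.p6), on the strand of the gene. The motifs searched, on both strands, were AGATAA, a site of the GATA family that includes Gata4, and AAGGTCA, the half-site of Nr5a1, and they do not overlap each other. Capitals mark AGATAA or, where it lies on the opposite strand, its complement TTATCT.
Hsd3b1, chr3:98859745-98860044, minus strand: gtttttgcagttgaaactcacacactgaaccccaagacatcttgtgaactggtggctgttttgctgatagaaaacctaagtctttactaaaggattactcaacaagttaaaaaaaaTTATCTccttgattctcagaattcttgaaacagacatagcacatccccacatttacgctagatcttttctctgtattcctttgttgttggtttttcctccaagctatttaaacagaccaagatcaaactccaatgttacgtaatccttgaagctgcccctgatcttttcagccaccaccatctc
Hsd3b6, chr3:98814394-98814693, minus strand: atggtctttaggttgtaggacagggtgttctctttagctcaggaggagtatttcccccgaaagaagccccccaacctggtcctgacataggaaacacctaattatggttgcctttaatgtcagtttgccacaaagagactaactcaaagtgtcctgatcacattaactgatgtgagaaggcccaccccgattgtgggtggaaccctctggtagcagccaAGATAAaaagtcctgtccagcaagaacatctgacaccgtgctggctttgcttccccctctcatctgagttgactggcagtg
Hsd17b3, chr13:64089152-64089451, minus strand: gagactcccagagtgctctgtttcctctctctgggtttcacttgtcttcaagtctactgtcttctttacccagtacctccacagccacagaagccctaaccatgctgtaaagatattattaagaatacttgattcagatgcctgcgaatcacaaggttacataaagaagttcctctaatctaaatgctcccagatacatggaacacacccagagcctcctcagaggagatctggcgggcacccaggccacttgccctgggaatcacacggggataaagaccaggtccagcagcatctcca
The match starts 134 bases before the start site in Hsd3b1 and 31 bases before it in Hsd3b6. The Hsd17b3 window, shown because that gene had the largest difference, held neither motif. Of all 32851 RefSeq windows of the same length, 11.2% held AGATAA and 4.72% held AAGGTCA, which was in none of the 9. These are matches of letters, and no binding was measured.

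Cyp17a1 carries out the 17-alpha-hydroxylase and 17,20-lyase steps that lead from progestogens to androgens. It measured 6.56, 6.25, 6.67 and 7.10 in dKO XY gonads, 6.44, 6.44, 6.71 and 6.13 in control XX gonads, and 8.08, 7.71, 11.31 and 9.03 in control XY gonads. The dKO XY and control XX samples shared 1 range near the middle of the array, between the 48th and 69th percentile of all clusters, and every control XY sample lay above it. Control XY gonads also varied most among themselves, with an SD of 1.62 against 0.353 in dKO XY gonads and 0.239 in control XX gonads. Cyp17a1 fell by 2.39 ± 0.58 in dKO XY (limma, adjusted p = 0.0237) relative to control XY gonads. It was also called between the control groups, where control XX minus control XY was -2.60 (adjusted p = 0.0416).

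Hsd17b3, which makes testosterone from androstenedione, had the largest differences of the 8 genes in both comparisons with control XY. It measured 8.54, 8.85, 8.66 and 9.17 in dKO XY gonads, 7.04, 7.03, 7.37 and 6.99 in control XX gonads, and 10.92, 11.82, 12.85 and 12.10 in control XY gonads. No groups overlapped, and the dKO XY samples lay between the control XX and the control XY samples. Relative to control XY gonads, Hsd17b3 fell by 3.12 ± 0.31 in dKO XY gonads (limma, adjusted p = 0.00263) and fell by 4.82 in control XX gonads (adjusted p = 1.66e-05), where it lay at 6.99 to 7.37, near the mean of the negative controls. Its dKO XY call passed in all 12 fits that left out 1 sample, the only one of the 6 calls to do so.

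Hsd17b1, which reduces estrone to estradiol and is known to act on androstenedione in rodents, measured 6.54, 6.22, 6.73 and 6.47 in dKO XY gonads, 6.50, 7.0, 6.42 and 6.24 in control XX gonads, and 7.37, 7.09, 7.48 and 6.86 in control XY gonads. The dKO XY samples lay just under the lowest control XY sample, and control XX 2 reached into the control XY range. The fall in dKO XY was the smallest of the 6 called, 0.71 ± 0.19 (limma, adjusted p = 0.0264). Every dKO XY value lay below the mean of the negative controls on its own array (6.65 to 6.86). So did control XY 4, at 6.86 against 6.95. This call therefore rests partly on values within background. The control XX minus control XY difference of -0.66 did not pass (adjusted p = 0.0944).

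Hsd11b2, which inactivates glucocorticoid and so shields the mineralocorticoid receptor, lies outside androgen synthesis. It measured 7.88, 8.90, 7.67 and 8.80 in dKO XY gonads, 7.18, 7.06, 6.83 and 6.79 in control XX gonads, and 10.27, 10.19, 10.42 and 9.18 in control XY gonads. As for Hsd17b3, no groups overlapped and the dKO XY samples lay between the others, here split into a higher pair (samples 2 and 4) and a lower pair (samples 1 and 3). Hsd11b2 fell by 1.70 ± 0.31 in dKO XY (limma, adjusted p = 0.0191), and fell by 3.05 in control XX gonads (adjusted p = 0.000273), relative to control XY gonads.

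Insl3 is the Leydig cell peptide that drives the first phase of testicular descent through its receptor Rxfp2. The cluster that carries Jak3 and Insl3 measured 6.73, 6.55, 6.70 and 6.61 in dKO XY gonads, 6.56, 6.61, 6.59 and 6.62 in control XX gonads, and 6.60, 6.40, 6.61 and 6.51 in control XY gonads. The 12 values lay close to the array medians of 6.02 to 6.52, and the dKO XY and control XY values overlapped. For dKO XY minus control XY it gave 0.12 (limma, adjusted p = 0.324), and its sign turned under quantile normalization (-0.08) and median centring (-0.14). The cluster cannot tell Insl3 from Jak3, and it gave no measurement of Insl3 alone.

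The dKO XY gonads were also compared with control XX gonads, to place their values on the scale of the difference between the sexes. None of the 9 clusters passed the test (limma), against 0.215% of all clusters, while 2 of them, Hsd17b3 and Hsd11b2, had an unadjusted p under 0.05, as did 10.3% of all clusters. Both were higher in all 4 dKO XY than in all 4 control XX gonads, a pattern shown by 1.92% of all clusters. Hsd17b3 was higher by 1.70 (95% interval 1.03 to 2.37) with an adjusted p of 0.0515, and passed in 6 of the 22 alternative fits other than the dim filter, among them quantile normalization (adjusted p = 0.0108) and the fit of these 2 groups alone (adjusted p = 0.0084, with 0.0084 to 0.255 over the 22). Without moderation of the spread, none of the 9 clusters passed. Hsd11b2 was higher by 1.35 (0.68 to 2.02, adjusted p = 0.157).

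For the other 6 genes, the dKO XY and control XX ranges overlapped. The difference was -0.00 for Star (-0.55 to 0.55), 0.13 for Cyp11a1 (-0.73 to 0.98) and 0.21 for Cyp17a1 (-1.05 to 1.48). These intervals are wide enough to hold a difference of more than 1 log2 unit for Cyp17a1. For Hsd3b1 the difference was -0.44 (-1.33 to 0.44), for Hsd3b6 -0.37 (-1.09 to 0.34) and for Hsd17b1 -0.05 (-0.45 to 0.35).

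**Figure D2:**
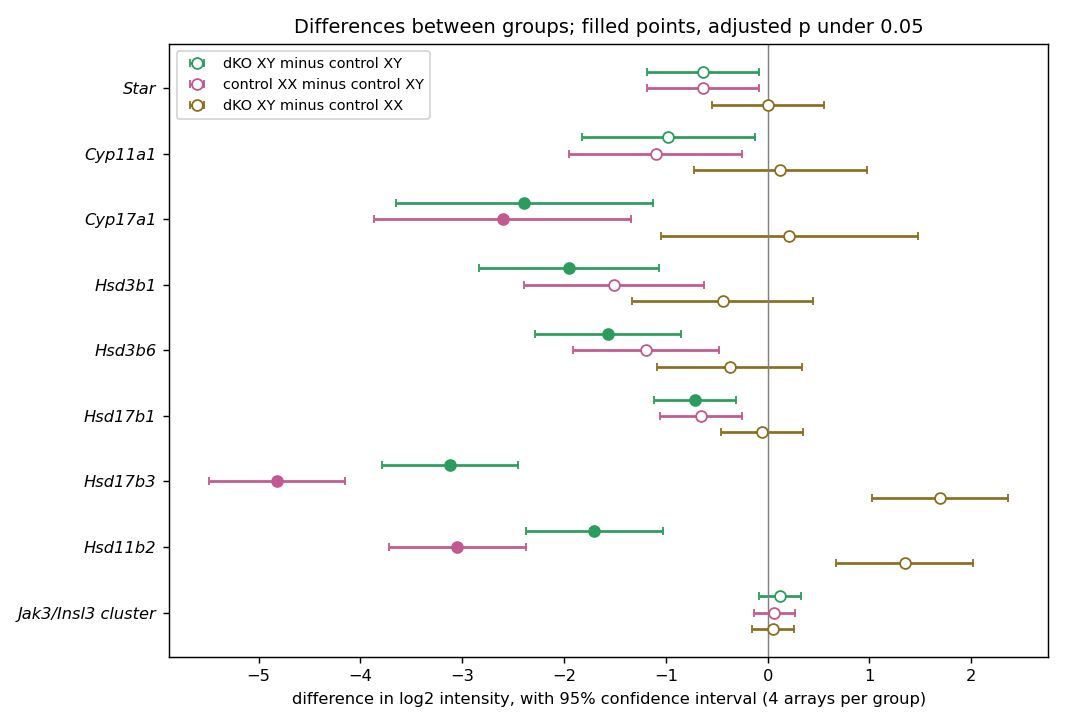
Difference in log2 intensity (horizontal axis) for each gene (vertical axis) in dKO XY minus control XY, control XX minus control XY and dKO XY minus control XX, with 95% intervals from limma (filled points, adjusted p under 0.05). Hsd17b3 and Hsd11b2 differ from 0 in all 3 comparisons by their intervals, at -3.12, -4.82 and 1.70 and at -1.70, -3.05 and 1.35, while the cluster of Jak3 and Insl3 stays near 0 in all 3.

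The samples did not contribute evenly. Control XY 3 was the highest sample of its group for all 8 genes, and control XX 1 was the highest of its group for 4 (Star, Cyp11a1, Hsd3b1 and Hsd11b2), while control XX 4 was the lowest for 6. Within groups the genes of the entry steps moved together: after the group means were taken away, the correlation over the 12 samples was 0.928 for Star with Hsd3b1, 0.907 for Cyp11a1 with Hsd3b1 and 0.900 for Star with Cyp11a1. Control XX 1 and control XY 3 lay furthest above their group means for Star, Cyp11a1 and Hsd3b1. These correlations lean on those samples and were not computed without them. Hsd17b3 and Hsd11b2, which correlated at 0.929 over the 12 samples as measured, correlated at 0.146 after the group means were taken away. Samples share an array and its scaling across genes, and these values are a description.

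Over the 12 samples, the genes whose profile was most like that of Hsd17b3 were Ptgds (Pearson r = 0.994), a prostaglandin synthase of Sertoli cells, Kcnh1 (0.989) and Nrg1 (0.988), of 7534 symbols that spanned at least 1 log2 unit. For Cyp17a1 they were Heyl (0.980), Jag1 (0.979) and Rab3b (0.977), of which Heyl and Jag1 are parts of the Notch pathway. Hsd11b2 was most like Fbln2 (0.988) and Star most like Adh1 (0.966), and Star and Cyp11a1 were themselves among the closest 3 to each other (0.941). Hsd3b1 was most like Mfap4 (0.927), Hsd3b6 most like Alas2 (0.948), a marker of erythroid cells, and Hsd17b1 most like Nts (0.860). Group means were not taken away for these correlations, so they include the differences between the groups.

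Array quality moved with the groups. The signal contrast of an array, by how much its positive control probe sets exceeded its negative ones on average, was 3.11 ± 0.585 in dKO XY, 3.41 ± 0.228 in control XX and 4.07 ± 0.317 in control XY samples (log2, SD, n = 4 each). The exact permutation p (two-sided) was 0.0571 for dKO XY against control XY and 0.0286 for control XX against control XY, the smallest that 70 arrangements can give. Samples dKO XY 3 (2.48) and dKO XY 1 (2.83) were the lowest. The mean of the spike-in control probe sets (ERCC) was 5.80 in dKO XY and 5.42 in control XY samples without overlap (exact permutation p = 0.0286). When this contrast entered the model as a covariate, no cluster and none of the 8 genes was called in dKO XY against control XY, although all 8 were still lower, with Hsd17b3 at -2.75 (adjusted p = 0.425, the highest of its 23 alternatives, the lowest being 0.000365), Cyp17a1 at -2.07, Hsd3b1 at -2.04 and Hsd11b2 at -0.77. In control XX against control XY, Hsd17b3 (-4.56) and Hsd11b2 (-2.41) stayed called and Cyp17a1 did not (-2.38, adjusted p = 0.362).

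Single samples decided many of the calls too. Without dKO XY 1, dKO XY 3 or control XY 3, only Hsd17b3 of the 8 genes was called between dKO XY and control XY, and the count over all clusters went to 78, 197 or 110, against 17501 with all samples. The 8 differences kept their direction in all 12 of these fits. For Cyp17a1, the dKO XY difference ran from -2.83 to -1.63 over them, with the smallest fall when control XY 3 was left out. The Cyp17a1 call between the control groups passed in 5 of the 12 fits, and was lost without dKO XY 1, dKO XY 4, control XY 4 or any 1 of the control XX samples (adjusted p 0.012 to 0.362 over all its alternatives). The dKO XY call was also lost without control XY 4 for Cyp17a1 (adjusted p = 0.0509) and without control XY 2 for Hsd17b1 (adjusted p = 0.0521).

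**Figure D3:**
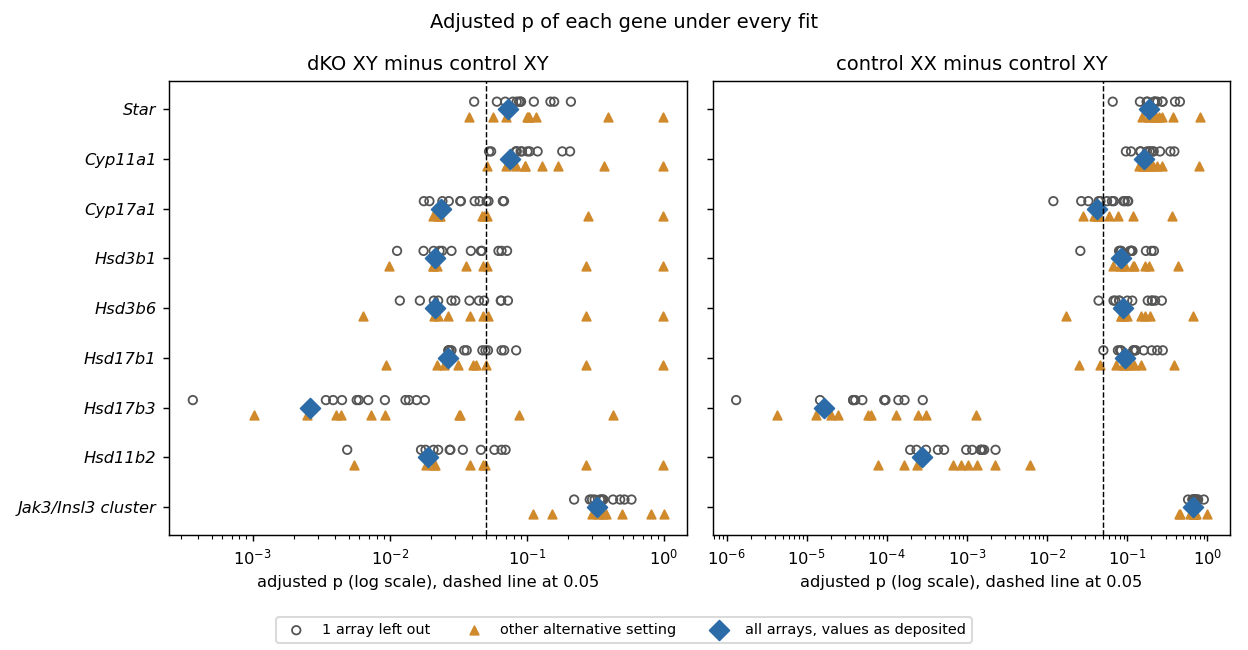
Adjusted p on a log scale (horizontal axes, dashed line at 0.05) of each gene (vertical axis) for dKO XY minus control XY and for control XX minus control XY. Diamonds are the values as deposited with all arrays, circles leave out 1 array and triangles are the other alternatives; for Hsd17b3 all 12 circles lie left of the line in both comparisons, while for the other called genes in dKO XY minus control XY some circles lie to its right.

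Of the targeted genes, Amh followed the labels clearly and Inhbb less so. Amh lay between 5.59 and 5.90 in dKO XY, between 5.14 and 5.52 in control XX and between 10.56 and 13.38 in control XY samples. Inhbb lay between 6.69 and 6.99 in dKO XY, between 6.49 and 6.97 in control XX and between 7.10 and 8.02 in control XY samples, so for both genes dKO XY gonads were below all control XY gonads. The Inhbb difference between dKO XY and control XY was -0.59 (limma, adjusted p = 0.035), and it missed after quantile normalization (adjusted p = 0.0557). That call passed in 7 of the 12 fits without 1 sample, and Inhbb was as low in control XX gonads. Arrays correlated within their groups at 0.974 to 0.992, and no 2 were identical.

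Other genes feed cholesterol and electrons into the pathway. Of 8 measured genes of cholesterol delivery and electron transfer, 1 was called lower in dKO XY against control XY: Fdx1, the ferredoxin that hands electrons to Cyp11a1, fell by 0.96 (limma, adjusted p = 0.0206). After quantile normalization it was -0.52 and missed (adjusted p = 0.0515). The share called lower, 1 of 8, was near the 9.8% of all clusters, and the median of the 8 was -0.20. In control XX against control XY none was called, 2 had an unadjusted p under 0.05, and the smallest adjusted p was that of Scarb1, the receptor for high-density lipoprotein, at 0.125 with a difference of -0.50.

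Of 22 other steroid enzymes, 2 were called lower and 1 higher in dKO XY against control XY, not above the 9.8% and 16.7% of all clusters. Their median of 0.18 was close to the 0.17 of all clusters. Cyp1b1, which hydroxylates estrogens, fell by 1.22 and Hsd17b4, a peroxisomal enzyme of fatty acid and estradiol oxidation, by 0.70, while Hsd11b1, which regenerates glucocorticoid, was higher by 0.44. After quantile normalization none of these 3 calls held, at -0.68, -0.28 and 0.15, and after median centring Hsd11b1 missed as well (0.18). In control XX against control XY, Cyp1b1 fell by 1.62 and Hsd17b12 by 0.91, and Hsd17b11 (1.28) and Akr1c14 (1.00), which reduces 3-keto steroids, were higher. Of all clusters, 1.34% were called lower and 0.608% higher there. Akr1c14 was the one gene of the pathway lists called between dKO XY and control XX gonads, where it fell by 0.85 (limma, adjusted p = 0.0201). The call was lost in 5 of the 12 fits without 1 sample.

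Transcription factors and signals that act on steroid genes or on fetal Leydig cells were a further list. Of 15 measured, 6 were called lower and 1 higher in dKO XY against control XY, against 9.8% and 16.7% of all clusters. In control XX against control XY, 8 were called lower and none higher, against 1.34% and 0.608% of all clusters. The medians of the 15 were -0.50 and -0.99. Hedgehog signalling from Sertoli cells, through Dhh and its receptor Ptch1, is known to drive fetal Leydig cell differentiation. Ptch1, which is also a target of the pathway, measured 9.30, 10.28, 9.03 and 10.14 in dKO XY gonads, 9.11, 7.89, 7.85 and 8.11 in control XX gonads, and 11.01, 11.03, 11.54 and 11.42 in control XY gonads. All dKO XY samples were below all control XY samples, and within the dKO XY group samples 1 and 3 were the low pair, close to control XX 1. Ptch1 fell by 1.56 in dKO XY (limma, adjusted p = 0.0212; -1.01 and adjusted p = 0.0578 after quantile normalization) and fell by 3.01 in control XX gonads (adjusted p = 0.000323), relative to control XY gonads.

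Hhip, another hedgehog target, fell by 2.14 in dKO XY and fell by 2.63 in control XX, both against control XY, and each call passed in all 12 fits without 1 sample. Tcf21, a factor of interstitial progenitors, had differences of -2.58 and -3.09 in the same comparisons and was called in both. Nr2f2, a marker of interstitial cells, fell by 1.49 in dKO XY against control XY (not called after quantile normalization, adjusted p = 0.0579), and was -1.24 in control XX against control XY without passing (adjusted p = 0.0822). Dhh itself measured 6.66, 7.04, 6.90 and 7.16 in dKO XY gonads, 6.24, 6.15, 6.56 and 6.07 in control XX gonads, and 7.10, 7.44, 8.08 and 7.15 in control XY gonads. Its dKO XY and control XY ranges overlapped, with a difference of -0.50 (adjusted p = 0.0786), while it fell by 1.19 in control XX gonads (adjusted p = 0.0106).

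Nr5a1, the nuclear receptor that activates most of the steroid genes, measured 8.33, 9.09, 8.15 and 8.66 in dKO XY gonads, 7.66, 7.86, 7.75 and 8.29 in control XX gonads, and 8.79, 9.24, 9.80 and 8.79 in control XY gonads. Control XX samples were below all control XY samples, and dKO XY 2 lay inside the control XY range. The fall in control XX gonads was 1.26 (limma, adjusted p = 0.0233), and the dKO XY minus control XY difference of -0.59 did not pass (adjusted p = 0.0862). The 1 regulator called higher in dKO XY against control XY, Nr4a3 (0.40), was singled out after its value was seen. The dKO XY calls of Fdx1, Cyp1b1, Ptch1, Tcf21 and Gramd1b were each lost without dKO XY 1, dKO XY 3 or control XY 3 and passed without any 1 of the others, and those of Nr2f2, Inha, Dlk1, Hsd17b4, Hsd11b1, Insl5 and Rxfp1 were lost without these and at least 1 more sample. Of the calls between the control groups, those of Nr5a1, Inha, Hsd17b11, Hsd17b12 and Esr1 were lost in some of the 12 fits without 1 sample (passing in 7, 8, 4, 6 and 2).

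**Figure D4:**
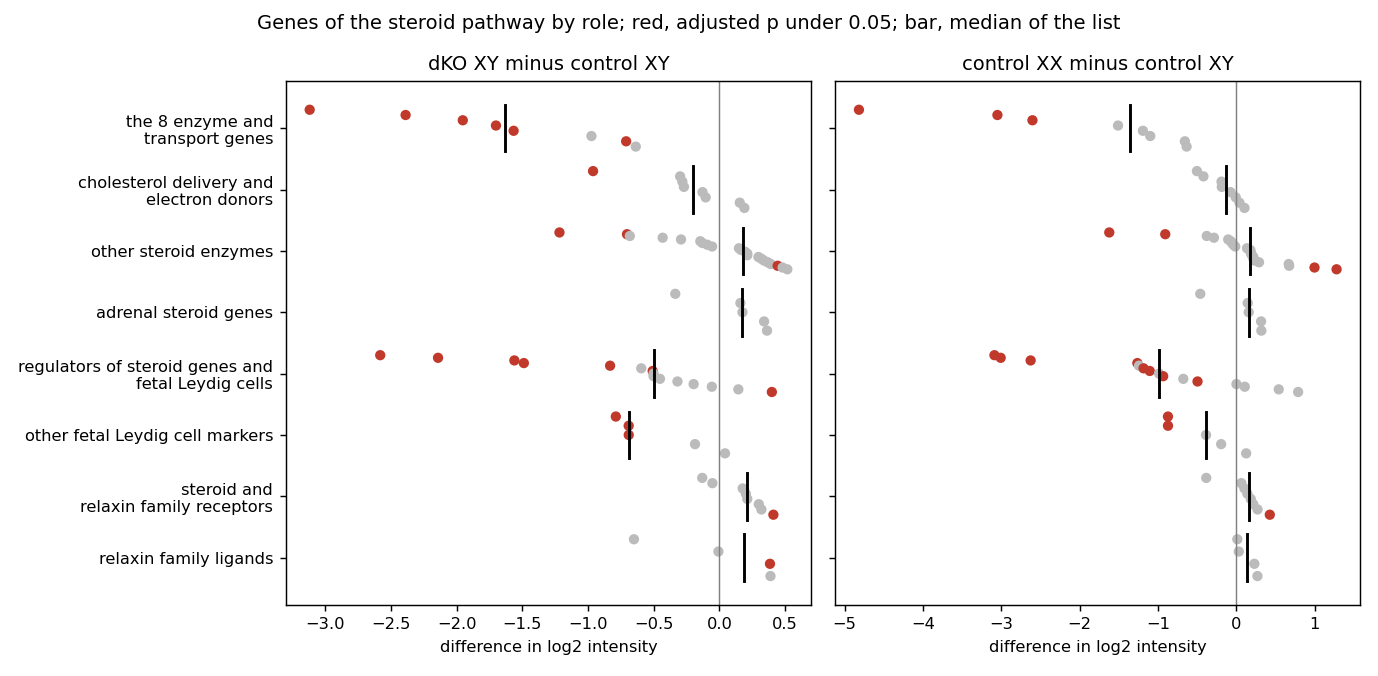
Difference in log2 intensity (horizontal axis) of each measured gene in the gene lists around steroid synthesis (vertical axis), for dKO XY minus control XY and control XX minus control XY. Red points passed an adjusted p of 0.05, and the bar in each row is the list median, at -1.63 and -1.35 for the steroid genes and at -0.50 and -0.99 for the regulators.

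The receptors and relatives of Insl3 were measured too. Of 8 steroid and relaxin family receptors, 1 was called higher in dKO XY against control XY, the relaxin receptor Rxfp1 (0.41, limma, adjusted p = 0.0481), and 1 in control XX against control XY, the estrogen receptor Esr1 (0.43, adjusted p = 0.0441). Of all clusters, 16.7% and 0.608% were called higher in these comparisons, so 1 of 8 in dKO XY was not above the background share. The Rxfp1 and Esr1 calls were lost under quantile normalization and median centring. Rxfp2, the receptor of Insl3, differed by -0.05 and -0.39 in these comparisons and was not called. Of 4 relaxin family ligands, Insl5 alone was called higher in dKO XY against control XY (0.39, adjusted p = 0.0429), beside 16.7% of all clusters. The Insl5 call was lost under the same 2 scalings. Insl6, singled out after its value was seen, differed by -0.65 in that comparison without passing (adjusted p = 0.0767). Lhcgr was not analysed here.

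Markers of several other cell types differed between the groups, and their part in the differences above was not tested. For comparison, 9.8% of all clusters were called lower and 16.7% higher in dKO XY against control XY. In control XX against control XY these shares were 1.34% and 0.608%. Of 5 other fetal Leydig cell markers, 3 were called lower in dKO XY against control XY, Inha (-0.79), Gramd1b (-0.69) and Dlk1 (-0.69), of which only Gramd1b stayed called after quantile normalization, and 2 in control XX against control XY. Their mean level per sample was 6.72 to 6.93 in dKO XY, 6.57 to 7.03 in control XX and 7.07 to 7.71 in control XY samples. Of 9 Sertoli cell markers, 5 were called lower in dKO XY and 8 in control XX, both against control XY, and their mean level was 9.06 to 9.73 in dKO XY, 6.93 to 7.21 in control XX and 10.32 to 10.96 in control XY samples. On this mean the dKO XY samples stood between the control XX and control XY samples. The largest differences between dKO XY and control XY were those of Defb19 (-4.12), Ptgds (-2.62), Cst9 (-1.87) and Mro (-0.97). The Cst9 call was lost after quantile normalization (limma, adjusted p = 0.0506). The list median was -0.45, 4 of the 9 were not called, and the smallest fall was 0.06, that of Sox9. Sox9 differed by -3.08 between control XX and control XY, and was higher by 3.02 in dKO XY than in control XX gonads. The 8 pre-granulosa cell markers averaged 6.37 to 6.55 in dKO XY, 7.07 to 7.60 in control XX and 6.05 to 6.24 in control XY samples. Of them, 2 were called higher in dKO XY against control XY (Runx1 and Irx5), near the 16.7% of all clusters, and both calls were lost under quantile normalization and median centring.

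Of 6 endothelial markers, 3 were called lower in dKO XY against control XY (Cdh5, Kdr and Tek), against 9.8% of all clusters. All 3 calls were lost under quantile normalization, and they passed in 8, 7 and 6 of the 12 fits without 1 sample. The 6 markers averaged 7.85 to 8.60 in dKO XY, 7.98 to 8.47 in control XX and 8.62 to 9.06 in control XY samples. The 4 measured mesonephros markers averaged 6.29 to 6.51 in dKO XY, 6.19 to 6.37 in control XX and 6.07 to 6.20 in control XY samples. Of them, 2 were called higher in dKO XY against control XY (Cdh16 and Pax8), against 16.7% of all clusters, and neither under the other 2 scalings. None of 6 germ cell markers was called against control XY in either group, and none of them had an unadjusted p under 0.05. In dKO XY against control XY, 1 of 6 macrophage markers was called higher (Adgre1), near the 16.7% of all clusters. There 1 of 2 erythroid markers was called lower (Alas2), against 9.8% of all clusters. Neither call held after quantile normalization. No marker was at 0 on this log2 scale, where an unexpressed gene also has a value.

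Genes of adrenal steroid synthesis were followed because the adrenal primordium lies next to the gonad and shares Star, Cyp11a1 and Hsd3b1 with it. None of 5 was called in any comparison, and 1 (Cyp21a1) had an unadjusted p under 0.05 against control XY in both groups. Mc2r, the receptor for adrenocorticotropic hormone, measured 7.82, 8.01, 7.70 and 7.97 in dKO XY gonads, 9.0, 7.39, 7.49 and 7.12 in control XX gonads, and 8.21, 8.35, 8.06 and 8.22 in control XY gonads. Control XX 1 was the highest of the 12 samples, as it also was for Cyp21a1, the adrenal 21-hydroxylase (6.56), and Cyp11b1, the 11-beta-hydroxylase (6.36). Those values of Cyp21a1 and Cyp11b1 lie below the mean of the negative controls on that array (6.84), so their ranks are within background. Cyp11b1 was nearly as high in control XX 3 (6.30) and dKO XY 1 (6.29). For the other 2 genes control XX 1 was not the highest, since Cyp11b2 was highest in control XX 3 (5.77, against 5.51 in control XX 1) and Mrap in dKO XY 3 (6.36, against 6.32). Control XX 1 is the same sample that was high for Star, Cyp11a1 and Hsd3b1, and the reason was not tested.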

How the data were processed

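Gonads were separated from the mesonephros and snap-frozen, RNA was amplified with WT-Ovation Pico and hybridised to Clariom D arrays. The authors deposited 1 table of log2 intensities from robust multiarray averaging (RMA). Its background and summary settings are not given in the sources used here, and array medians ran from 6.02 to 6.52. It holds 72688 probe sets, of which 65956 are transcript clusters: 30646 carry 1 symbol in the platform annotation, 2168 several and 33142 none.

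The values were tested as deposited, with no filter, with limma 3.58.1 in R 4.3.3: 1 linear model of 3 group means over 12 arrays, eBayes moderation and Benjamini-Hochberg adjustment over all clusters, with calls at an adjusted p under 0.05. This follows the one-way design of the methods, which added a fold of 2. A gene with several clusters was represented by that of the highest mean. The script was tested on simulated data. The number of arrays limits the precision. Permutations were exact over 70 arrangements. Alternatives were other scalings, signal contrast as a covariate, a filter on dim clusters, fewer groups or arrays, array weights, an intensity trend, no moderation, the 2-fold threshold and a replicate block.

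Named were all 10 genes and, of each gene list, up to 4 called genes of largest difference, or the gene of smallest adjusted p where none passed, with Nr5a1, Dhh, Ptch1, Esr1 and Rxfp2 always, and Amh and Inhbb. Only part of the genes that this rule gives are named for the cell type marker lists and for dKO XY against control XX. The genes and lists were chosen with earlier results of these data known. Expression of genes without a cluster of their own symbol was not analysed here. Motifs were searched in RefSeq promoter windows (GRCm38.p6), and gene coordinates of the array were not used.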

Additional observations from a re-analysis of the deposited data

Results flagged for a closer look

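In each of 27 sets of 4 samples (9 clusters in 3 groups), the highest or lowest sample was checked for a gap to the next sample that was large against the range of the set, and 4 sets had one. Chance gives such a gap in about 1 of 20 sets. Cyp11a1 in control XX 1 was 7.39, apart from the other 3 control XX samples. Cyp11a1 in control XY 3 was 8.71 and Hsd3b1 in control XY 3 was 10.81, each above the other 3 control XY samples. Hsd17b3 in control XX 3 was 7.37, above control XX samples at 6.99 to 7.04.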

How the results depend on the processing

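Counts of the genes described, and of all clusters, moved most between dKO XY and control XY. All clusters called, 17501 as deposited (6465 lower, 11036 higher), were 1810 after quantile normalization (975 lower, 835 higher), 13874 after median centring (11165 lower, 2709 higher), 0 with signal contrast as a covariate, 1578 of 5625 above the dim filter, 10849 with 2 groups only, 6958 without moderation, 26920 with array weights, 4 without dKO XY 1 and 3, 2824 with the 2-fold threshold, and 78 to 28065 without 1 array. Of the genes, 6 were called as deposited, 4 after quantile normalization, 7 after median centring (Star among them) and 0 with the covariate. Under the dim filter 1 was called (Hsd17b3, which alone was kept, and only through control XY, so the filter supports no call of it). Without dKO XY 1 and 3 the count was 0, and without 1 array it was 1 to 7. Hsd3b1 and Hsd3b6 missed after quantile normalization (adjusted p 0.0515 and 0.052), and Cyp17a1 and Hsd17b1 without moderation (0.0516 and 0.0504).

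Between control XX and control XY, 1284 clusters were called as deposited, 391 with the covariate, 177 under the dim filter, 787 without moderation, 6474 with array weights, 649 with the 2-fold threshold and 569 to 1821 without 1 array; genes were 3, against 1 under the dim filter, 5 with array weights and 2 to 3 without 1 array. Between dKO XY and control XX, 142 clusters were called, against 235 after quantile normalization, 54 after centring, 235 with the covariate, 57 under the dim filter, 43 with 2 groups, 34 without moderation, 220 with array weights, 66 without dKO XY 1 and 3, and 36 to 211 without 1 array; genes were 0, against 1 after quantile normalization, 2 with the covariate, 1 each under the dim filter, with 2 groups and with array weights, and 0 to 1 without 1 array. Under the dim filter the gene was Hsd17b3 in both comparisons, kept only through control XY, so that fit supports no call of it. The cause of these changes was not tested.

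Signs turned for some differences. For dKO XY minus control XX, Star was 0.046 with the covariate, 0.10 without dKO XY 1 and 3 and -0.14 to 0.26 without 1 array, Cyp11a1 -0.0867 with array weights, -0.29 in its second cluster and -0.0050 to 0.463 without 1 array, Hsd17b1 -0.15 to 0.10 without 1 array, and Mc2r -0.28 with array weights and -0.0851 to 0.541 without 1 array. For control XX minus control XY, Cyp11a1 was -1.10 in its first cluster and 0.27 in its second. The cluster of Jak3 and Insl3 was -0.0827 after quantile normalization and -0.143 after centring in dKO XY minus control XY, -0.064 and -0.103 in control XX minus control XY, and -0.0186 and -0.0401 in dKO XY minus control XX, where it was -0.0134 without dKO XY 1 and 3. The dKO XY minus control XY difference of Esr1 was -0.0517 after quantile normalization and -0.0509 after centring, of Hsd17b4 0.0737 with the covariate (-0.70 and called as deposited), of Nr5a1 0.247 with the covariate (-0.59 as deposited), and of Rxfp2 0.0132 with array weights, 0.0599 without dKO XY 1 and 3 and -0.19 to 0.13 without 1 array.

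Replicate numbers are shared between groups, but not every same-numbered pair deviated together from its group means. The correlations for numbers 1 to 4 were 0.21, -0.03, -0.41 and -0.21 for dKO XY with control XY, 0.15, -0.09, -0.32 and 0.25 for control XX with control XY, and 0.11, 0.15, 0.37 and -0.02 for dKO XY with control XX. With the replicate block, 6, 3 and 0 genes and 15460, 965 and 100 clusters were called in dKO XY against control XY, control XX against control XY and dKO XY against control XX.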
